A study of Rattus norvegicus with 18 samples.

Results

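Bone marrow mesenchymal stromal cells (MSCs) of 12 months old Sprague Dawley rats (aMSCs, for aged donors) were compared after passage 30 (P30, 3 arrays) and after passage 2 (P2, 3 arrays), with 1 array per sample on an Illumina RatRef-12 BeadChip. The same passages of MSCs from rats of 3 weeks (yMSCs, 3 arrays each) served to test where the change differed between aMSCs and yMSCs. The whole series held 18 arrays with the P100 samples of both ages. According to the study's methods the donors were male, the cells were selected by adherence to plastic and kept in expansion medium, and P2 cells were the primary cultures. All 6 arrays of aMSCs thus shared strain, donor age, tissue and medium, and by their labels differed in the number of passages. Whether P2 and P30 cells came from the same animals is not given in the sources used here. The study speaks of its long-term cultures as a pair, aMSCs and yMSCs, and whether the 3 P30 arrays came from separate cultures is not given in the sources used here, so p-values measured only the spread between these arrays, which may be technical. The genes described are those detected in P30 or P2 of aMSCs, with a mean detection p of at most 0.01 over the 3 arrays of a group. There were 8878 such genes (6428 with a gene name) of 9531 genes tested in the series and of 22018 genes on the array.

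MSCs are adherent cells of the marrow stroma that can form bone, cartilage and fat cells. They support blood formation and secrete matrix proteins, chemokines and growth factors. Each passage detaches the cells and seeds a part of them again. A bulk array gives the mean of all cells on the plate.

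Levels below are log2 signals after background correction and quantile normalization, given in the order of replicates 1, 2 and 3. A gene is said to have risen or fallen when limma's adjusted p was under 0.05 (Benjamini-Hochberg over the 9531 genes tested) and the fold was at least 1.5. A log2 change of 1 is a doubling. Where a gene was detected on no array of a group, only a lower bound of the fold is given (at least N-fold), taken from the dimmest detected signal of each array.

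The P30 arrays had a higher background than the P2 arrays, at 53.3 to 54.7 intensity units for P30 against 31.3 to 32.6 for P2. The ratio of signal to background was lower, at 4.81 to 5.14 for P30 against 6.15 to 7.14 for P2, and fewer probes were detected, 7648 to 7951 for P30 against 8700 to 9105 for P2. The background and the passage cannot be told apart, since all P2 arrays, those of yMSCs included, had the lower background. Genes near the detection limit are therefore less firmly compared than bright ones.

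The P30 arrays did not agree equally well. Over the 8878 genes, replicates 1 and 2 correlated at r = 0.994, while replicate 3 correlated at 0.958 with replicate 1 and at 0.966 with replicate 2. P2 arrays correlated at 0.983 to 0.993 with each other. Replicate 3 stood closer to P2, with r of 0.918 to 0.921, than replicate 1 with 0.887 to 0.890 and replicate 2 with 0.893 to 0.895. It was as close to P30 replicates 2 and 3 of yMSCs, at 0.967 and 0.968, as to its own group. Replicate 3 differed from the mean of replicates 1 and 2 by over 1 on the log2 scale for 652 genes, of which 485 were higher and 167 lower on replicate 3.

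Some genes were dark on replicates 1 and 2 and not on replicate 3. Altogether 324 genes (206 with a name) were detected on P30 replicate 3 and on all 3 P2 arrays, but on neither of P30 replicates 1 and 2. Of these, 220 were among the 652 genes with a gap over 1, and 198 were detected on all 16 arrays of the series other than these replicates. Their median log2 difference to P2 was -1.55 for the mean of replicates 1 and 2, while it was -0.20 for replicate 3, and 288 of the 324 lay within 1 of the P2 mean on replicate 3. These values describe the set and follow largely from how its genes were chosen, so they are no separate evidence of a difference between the replicates. The 324 genes contributed 219 of the falls, of which 44 were also called with replicate 3 as the only P30 array. The converse set, detected on replicates 1 and 2 and all P2 arrays but not on replicate 3, held 220 genes.

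Some of the genes that split the replicates were abundant at P2. Cav1, the scaffold protein of caveolae, had 5.61, 5.42 and 10.59 in aMSCs P30, against 10.17, 10.39 and 10.21 in aMSCs P2. Msn, moesin, which ties the actin cortex to the membrane, had 4.38, 4.50 and 9.34 in aMSCs P30, against 10.32, 10.61 and 10.94 in aMSCs P2. Cpe, carboxypeptidase E, had 4.45, 4.44 and 8.69 in aMSCs P30, against 10.57, 10.49 and 10.02 in aMSCs P2. On replicate 3 Cav1 was at the P2 level and Msn and Cpe lay below it, and on replicates 1 and 2 all 3 genes lay far below every P2 array. The same pattern was read for Golph3, a Golgi protein (4.65, 5.04 and 8.52 at P30, against 9.44, 9.37 and 8.94 at P2), for Bud23, a methyltransferase of ribosome formation (4.78, 4.83 and 8.80 at P30, against 8.48, 8.40 and 8.31 at P2), and for Lemd2, a protein of the inner nuclear membrane (4.32, 4.39 and 7.84 at P30, against 8.02, 8.36 and 8.22 at P2). Yif1b, a protein of Golgi transport, had 4.35, 4.43 and 8.17 at P30, against 7.89, 7.95 and 8.22 at P2. Ier5, an immediate early gene, had 4.46, 4.41 and 7.86 at P30, against 7.08, 6.99 and 6.86 at P2. With replicate 3 as the only P30 array, the log2 change of Cav1 was 0.34, of Bud23 0.40, of Yif1b 0.15 and of Ier5 0.88, all of the opposite sign, those of Golph3 (-0.73) and Lemd2 (-0.36) were not called, while those of Msn (-1.29, adjusted p = 0.00799) and Cpe (-1.67, adjusted p = 0.00188) stayed falls. Leaving out replicate 1 or replicate 2 alone also ended the call of Cav1 (-2.25 and -2.16) and of Bud23 (-1.58 and -1.61).

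The opposite gap was read for genes high on replicates 1 and 2. Eln, elastin, had 7.95, 8.26 and 5.82 in aMSCs P30, against 10.20, 9.73 and 9.37 in aMSCs P2, and its fall was not called without replicate 3 (log2 change -1.66). Aplp1, an amyloid precursor-like protein, had 9.80, 9.59 and 7.45 in aMSCs P30, against 6.14, 5.91 and 6.58 in aMSCs P2. Aoc3, an amine oxidase of vessel and fat cells, had 7.60, 7.44 and 5.22 in aMSCs P30, against 9.90, 9.70 and 9.75 in aMSCs P2. All 3 P30 arrays lay on one side of P2 for each of these genes, so that replicate 3 changed the size and not the side. For Kmt2e, a chromatin regulator, replicates 1 and 2 were above P2 and replicate 3 was below (7.68, 7.53 and 5.29 at P30, against 5.66, 5.51 and 5.68 at P2), and its change was -0.33 with replicate 3 alone. Its rise was also not called without P30 replicate 1 (0.79), P30 replicate 2 (0.86) or P2 replicate 2 (1.16). Flot2, flotillin 2, had 7.91, 8.03 and 6.21 at P30, against 6.80, 7.08 and 6.99 at P2, and Ddx6, an RNA helicase, had 11.05, 11.07 and 9.12 at P30, against 10.56, 10.46 and 10.26 at P2. Neither was called with all arrays. R3hdm2 was detected on replicates 1 and 2 of P30 (6.65, 6.50 and 4.51 at P30, against 4.54, 4.70 and 4.71 at P2) and on no P2 array, and was not among the 8878 genes by its mean detection p.

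**Figure D1:**
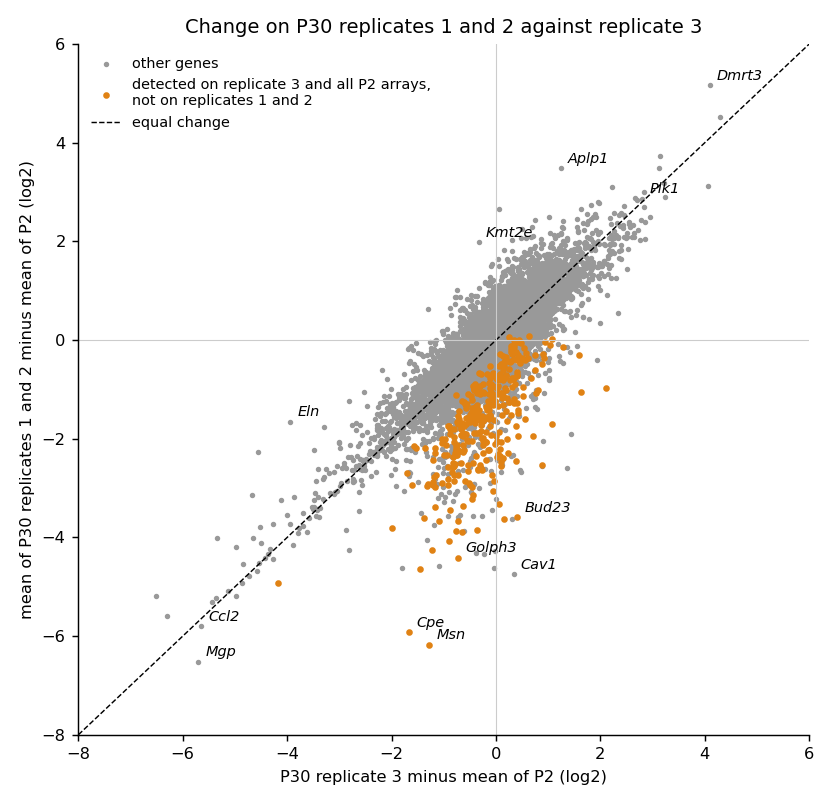
Change from P2 on P30 replicate 3 (horizontal, log2) against the change on the mean of P30 replicates 1 and 2 (vertical, log2), 1 point per gene. The dashed line marks equal change. The 324 genes in orange, detected on replicate 3 and on all P2 arrays but on neither replicate 1 nor 2, lie below the line, with Msn and Cpe lowest, while Dmrt3, Plk1, Ccl2 and Mgp lie near it. The place of the orange genes follows largely from how they were chosen.

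Between P30 and P2, 1807 genes rose (20.4% of 8878) and 1884 fell (21.2%), so that 41.6% were called. The median fold of the called genes was 1.98. At a fold of at least 4, 79 rose and 257 fell, and at a fold of at least 16, 2 rose and 26 fell. All 3 P30 arrays lay above all 3 P2 arrays for 3012 genes (33.9%) and below for 2637 (29.7%). The balance of rises and falls depended on the scaling of the arrays. Rises made up 49.0% of the calls as given above, 31.4% with no normalization between arrays (1147 rises, 2501 falls), 40.4% with arrays centred on their detected probes (1477 and 2179) and 38.4% with the deposited normalized values (1463 and 2346). The median log2 change of all genes was 0.05, and it was -0.16 with no normalization and -0.13 with the deposited normalized values, so that changes smaller than these have no settled sign.

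The called genes differed less from P2 on replicate 3 than on replicates 1 and 2. Replicates 1 and 2 together outweigh replicate 3 in the P30 mean by which genes were called. Part of this difference therefore follows from the choice of genes, and how much was not tested. Of the 1807 rises, the mean of replicates 1 and 2 was at least 1.5-fold above the P2 mean for 1738, and replicate 3 for 1337. Of the 1884 falls, these were 1804 and 1394. A fit with 1 P30 array also has less power, so a call lost in it need not mean that the value changed. With replicate 3 as the only P30 array, 1045 of the rises and 1125 of the falls were called, and without replicate 3, 1712 and 1772 were. In the fit with replicate 3 alone, 1231 genes rose and 1308 fell in all, so that counts over lists were also smaller there.

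Detection itself shifted in one direction. Detected at P30 and not at P2 were 297 genes (185 named), of which 249 rose, while 1401 genes (923 named) were detected at P2 and not at P30, of which 789 fell. With the stricter demand of all 3 arrays of one group and none of the other, these were 73 and 656 genes. Since the P30 arrays had the higher background, a gene lost from detection may have kept a level below what these arrays read.

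The largest rise among named genes was that of Dmrt3, a transcription factor of the DM domain family known from spinal cord development, with 10.25, 10.13 and 9.12 in aMSCs P30, against 6.10, 4.49 and 4.48 in aMSCs P2 (log2 change 4.81 ± 0.34 (SE), adjusted p = 1.83e-08). It was detected on 1 of the 3 P2 arrays. Its neighbour in the family, Dmrt2, a factor of the dermomyotome, had 10.35, 10.18 and 9.69 in aMSCs P30, against 7.53, 6.00 and 6.08 in aMSCs P2 (log2 change 3.53 ± 0.30 (SE), adjusted p = 1.49e-07). Cdhr1, a cadherin-related protein of photoreceptors, had 10.51, 10.28 and 10.17 in aMSCs P30, against 7.38, 5.02 and 5.24 in aMSCs P2 (log2 change 4.44 ± 0.46 (SE), adjusted p = 1.47e-06). Stmn2, a microtubule destabilizer of neurons, had 9.79, 9.71 and 9.58 in aMSCs P30, against 8.32, 6.55 and 5.37 in aMSCs P2 (log2 change 2.95 ± 0.44 (SE), adjusted p = 4.55e-05). For each of these 4 genes P2 replicate 1 was the highest of the P2 arrays. That every P30 array was above it was a condition of the choice.

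Acan, aggrecan, the large proteoglycan of cartilage, rose alike on all P30 arrays, with 8.65, 8.75 and 8.74 in aMSCs P30, against 5.84, 5.43 and 5.28 in aMSCs P2 (log2 change 3.19 ± 0.27 (SE), adjusted p = 1.31e-07). Slfn4, a Schlafen family member known from mouse macrophages, had 9.32, 9.06 and 9.52 in aMSCs P30, against 6.30, 6.32 and 6.25 in aMSCs P2 (log2 change 3.01 ± 0.26 (SE), adjusted p = 1.41e-07). Penk, the precursor of enkephalin peptides, had 13.21, 13.11 and 12.28 in aMSCs P30, against 10.74, 9.49 and 9.94 in aMSCs P2 (log2 change 2.81 ± 0.41 (SE), adjusted p = 3.90e-05). Ms4a4c, a 4-transmembrane protein, had 8.27, 8.06 and 8.50 in aMSCs P30, against 6.50, 5.03 and 5.67 in aMSCs P2 (log2 change 2.54 ± 0.32 (SE), adjusted p = 9.81e-06). The remaining genes among the 15 largest rises of genes with a name were Aplp1 (log2 change 2.73, and 1.24 with replicate 3 alone), Lmnb2, and Plk1, Tpx2, Aspm, Exo1 and Mcm6, which belong to cell division.

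The largest fall among named genes was that of Mgp, matrix Gla protein, an inhibitor of calcification, with 7.06, 7.10 and 7.89 in aMSCs P30, against 13.85, 13.45 and 13.49 in aMSCs P2 (log2 change -6.25 ± 0.29 (SE), adjusted p = 2.03e-10). Smpdl3a, a lysosomal phosphodiesterase, had 5.38, 5.35 and 4.65 in aMSCs P30, against 11.04, 10.87 and 10.95 in aMSCs P2 (log2 change -5.82 ± 0.23 (SE), adjusted p = 2.58e-11) and was detected on 1 P30 array. Ccn3, a matricellular protein, had 6.25, 6.06 and 4.83 in aMSCs P30, against 11.52, 11.11 and 11.37 in aMSCs P2 (log2 change -5.62 ± 0.27 (SE), adjusted p = 3.37e-10). By the choice of genes, no P30 array overlapped with P2 for these 3. Mgp alone was detected on all P30 arrays.

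Several genes bright at P2 were detected on no P30 array. Palmd, palmdelphin, a protein of the paralemmin family, had 4.90, 4.71 and 5.00 at P30, against 10.07, 10.02 and 9.88 at P2 (at least 23.8-fold lower, adjusted p = 2.80e-13). C1qtnf7, a C1q and TNF related protein, had 4.46, 4.54 and 4.37 at P30, against 10.37, 9.72 and 9.33 at P2 (at least 21.0-fold lower, adjusted p = 1.99e-09). Sirpa, the receptor of the signal CD47, had 4.50, 4.41 and 4.44 at P30, against 8.99, 8.98 and 8.99 at P2 (at least 11.8-fold lower, adjusted p = 1.11e-09). For each, the P30 arrays stood at the floor. The P2 arrays lay close together for Palmd and Sirpa, and ranged from 9.33 to 10.37 for C1qtnf7. Lpl, lipoprotein lipase, was detected on 1 P30 array (4.97, 4.70 and 5.58 at P30, against 9.93, 9.59 and 9.75 at P2, log2 change -4.67 ± 0.31 (SE), adjusted p = 7.37e-09). Rarres2, the precursor of chemerin, had 5.96, 5.90 and 4.59 at P30, against 10.16, 9.63 and 10.03 at P2 (log2 change -4.46 ± 0.33 (SE), adjusted p = 3.20e-08). Thbs2, thrombospondin 2, had 5.34, 5.32 and 5.44 at P30, against 10.53, 9.88 and 9.62 at P2 (log2 change -4.64 ± 0.28 (SE), adjusted p = 2.22e-09). The other large falls, Ccl2, Ccl7, C2 and Lum, are given with their groups, and Msn and Cpe above.

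**Figure D2:**
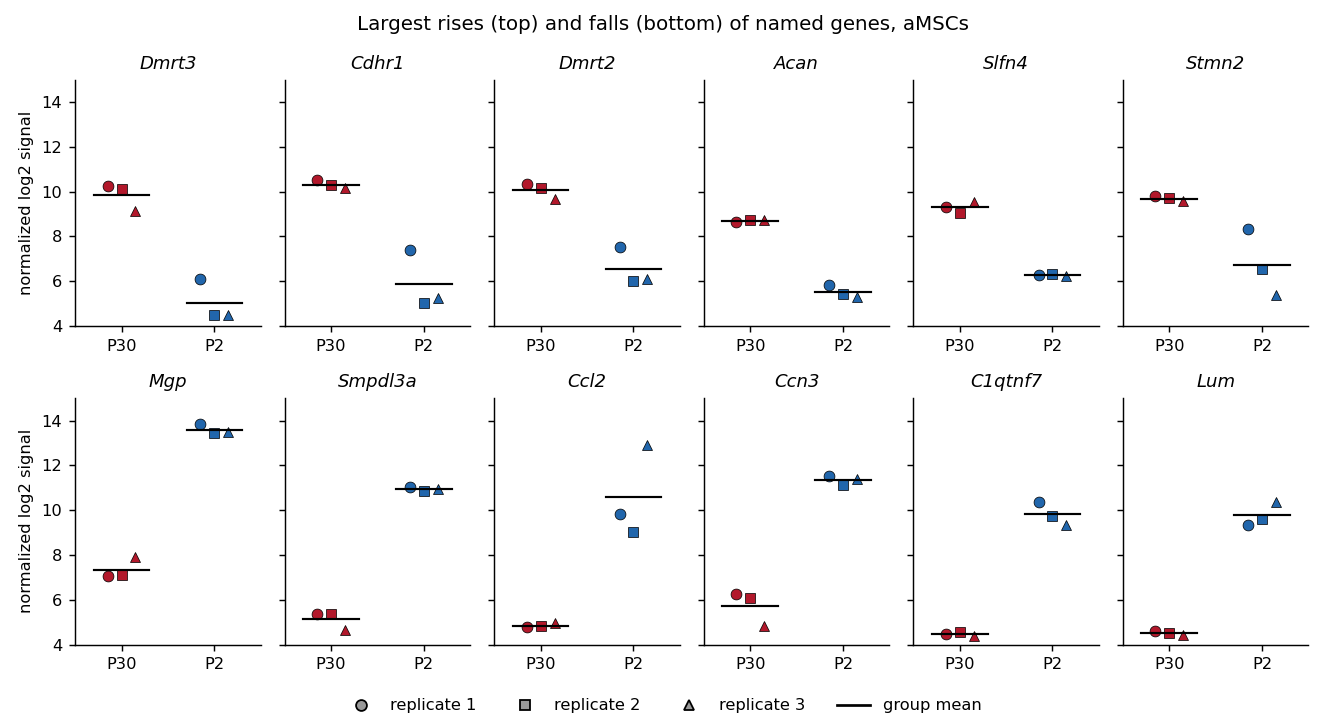
Normalized log2 signal of the 6 largest rises (top) and 6 largest falls (bottom) of genes with a name in aMSCs, P30 left and P2 right, 1 symbol per replicate and a line at the group mean. P30 arrays of Acan lie between 8.65 and 8.75, while P2 replicate 1 stands above the other P2 arrays for Cdhr1 (7.38) and Stmn2 (8.32), and P2 replicate 3 for Ccl2 (12.91).

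The surface markers that define MSCs in flow cytometry were checked next. Itgb1 (CD29) had 11.87, 12.26 and 13.19 in aMSCs P30, against 13.56, 13.90 and 14.11 in aMSCs P2 (log2 change -1.41 ± 0.33 (SE), adjusted p = 0.00207). Cd44 had 8.63, 8.50 and 9.05 in aMSCs P30, against 9.84, 10.01 and 10.39 in aMSCs P2 (log2 change -1.35 ± 0.21 (SE), adjusted p = 8.06e-05). Thy1 (CD90) had 8.75, 8.89 and 11.39 in aMSCs P30, against 12.60, 12.69 and 12.43 in aMSCs P2 (log2 change -2.89 ± 0.45 (SE), adjusted p = 7.10e-05). All 3 fell and were still detected on every array. Nt5e (CD73), the ecto-nucleotidase, had 7.26, 7.09 and 6.32 in aMSCs P30, against 9.20, 8.75 and 9.04 in aMSCs P2 (log2 change -2.11 ± 0.29 (SE), adjusted p = 2.21e-05), and Alcam (CD166) had 7.81, 7.72 and 8.44 in aMSCs P30, against 8.61, 8.80 and 8.68 in aMSCs P2 (log2 change -0.71 ± 0.17 (SE), adjusted p = 0.00212). Vcam1 (CD106) was detected on 1 P2 array (4.83, 4.60 and 4.67 at P30, against 4.71, 4.69 and 6.29 at P2). The negative markers were at the floor, with Ptprc (CD45) detected on P2 replicate 3 alone (4.36, 4.49 and 4.50 at P30, against 4.45, 4.56 and 5.31 at P2) and Cd34 on none (4.49, 4.41 and 4.63 at P30, against 4.47, 4.53 and 4.88 at P2). The gene of CD105 was not analysed here. With replicate 3 as the only P30 array the falls of Itgb1 (-0.66, adjusted p = 0.236) and Alcam (-0.26, adjusted p = 0.316) were not called, nor was that of Alcam without replicate 2 (-0.57), while those of Cd44 (-1.03), Thy1 (-1.18) and Nt5e (-2.68) were.

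In the wider list of MSC surface markers, 7 of 9 detected genes fell and 1 rose (median log2 change -1.35, against 0.05 over all genes, of which 21.2% fell and 20.4% rose). With replicate 3 alone, 3 fell and 1 rose (median -0.53). Mcam (CD146), a marker of perivascular stromal cells, had 4.37, 5.10 and 6.74 at P30, against 6.93, 7.58 and 7.31 at P2 (log2 change -1.87 ± 0.39 (SE), adjusted p = 8.24e-04) and was not called with replicate 3 alone (-0.53). Nes, nestin, a filament protein of stem and progenitor cells, was the member that rose, with 7.36, 7.34 and 7.83 at P30, against 4.91, 5.20 and 5.46 at P2 (log2 change 2.32 ± 0.21 (SE), adjusted p = 3.41e-07). In yMSCs the median of the list was -0.01, with 1 fall and 2 rises, against 1441 falls and 1469 rises over the 8878 genes. The change in aMSCs was below that in yMSCs, by the interaction term, for 4 of the 9 genes, against 5.92% of all genes. Among the 4 were Cd44 (-1.34), Itgb1 (-1.59) and Alcam (-1.02). With replicate 3 as the only P30 array these values shrank to -1.02, -0.83 and -0.57.

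**Figure D3:**
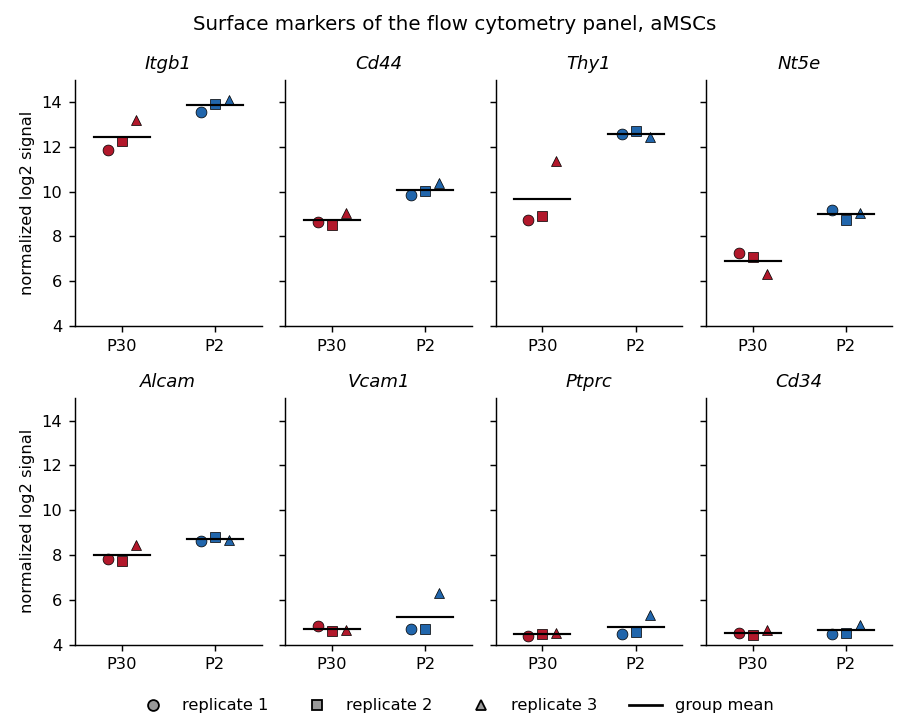
Normalized log2 signal of 8 genes of the flow cytometry panel in aMSCs, P30 left and P2 right, 1 symbol per replicate and a line at the group mean. Itgb1, Cd44, Thy1, Nt5e and Alcam lie lower at P30, with P30 replicate 3 nearest to P2 for Thy1 (11.39) and Itgb1 (13.19), while Vcam1, Ptprc and Cd34 lie near the floor apart from P2 replicate 3.

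Markers of other cells that marrow could carry into culture were read as whole lists. Over all genes 21.2% fell and 20.4% rose. Of 27 macrophage and monocyte markers on the array, 11 were detected, 2 of them at P30 (Cyba and Cd14) and all 11 at P2, and 10 fell. Aif1, a macrophage calcium-binding protein, had 4.42, 4.42 and 4.54 at P30, against 7.66, 7.81 and 9.55 at P2 (at least 7.57-fold lower, adjusted p = 8.03e-07). Apoe, apolipoprotein E, had 4.76, 4.73 and 4.55 at P30, against 7.68, 7.85 and 9.22 at P2 (at least 7.13-fold lower, adjusted p = 5.81e-06). Ctss, cathepsin S, had 4.40, 4.41 and 4.53 at P30, against 7.45, 7.81 and 8.68 at P2 (at least 5.90-fold lower, adjusted p = 6.78e-07), and Pf4, platelet factor 4, had 4.56, 4.40 and 4.47 at P30, against 6.37, 6.66 and 7.16 at P2 (at least 2.48-fold lower, adjusted p = 4.30e-05). P2 replicate 3 was the highest for all 4. The summed signal of the list without Cyba, which many cells express, was 715 to 788 at P30 against 1652 to 3712 at P2. In a bulk sample fewer cells of a type and less RNA per cell cannot be told apart. Of the lymphocyte, endothelial and erythroid lists, 1, 1 and 2 genes were detected, and of the granulocyte and mast cell list none. Of 4 detected epithelial genes 3 rose, which were the keratins Krt7 (8.81, 9.04 and 9.49 at P30, against 6.54, 6.66 and 7.32 at P2, log2 change 2.28 ± 0.29 (SE), adjusted p = 9.79e-06) and Krt8 (6.55, 6.45 and 6.21 at P30, against 5.28, 5.33 and 5.40 at P2, log2 change 1.07 ± 0.19 (SE), adjusted p = 1.99e-04) and the desmosome protein Pkp1 (10.49, 10.62 and 9.99 at P30, against 7.71, 7.92 and 8.57 at P2, log2 change 2.30 ± 0.25 (SE), adjusted p = 2.59e-06). The summed signal of all 13 epithelial genes was 2130 to 2551 at P30 against 665 to 909 at P2.

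Genes of cell division rose together. Of 39 detected DNA replication genes 32 rose and none fell (median log2 change 1.04), and with replicate 3 as the only P30 array 34 rose (median 1.52). Of 27 genes of mitosis and the spindle 25 rose and none fell (median 1.85, and 2.15 with replicate 3 alone). Over all genes 20.4% rose. Both lists kept a median above 0 under every alternative setting, from 0.86 to 1.52 for replication and from 1.46 to 2.15 for mitosis. In yMSCs 30 of the replication genes and 27 of the mitosis genes rose and none fell, against 1469 rises over the 8878 genes. The study's proliferation assay found the passages P2, P30 and P100 alike in both donor ages. Whether the rises in RNA went with faster division was not tested here.

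Mcm6, a subunit of the MCM helicase that opens DNA at origins, had 10.50, 10.72 and 11.07 at P30, against 8.31, 8.02 and 8.34 at P2 (log2 change 2.54 ± 0.30 (SE), adjusted p = 5.51e-06). Its partner Mcm3 had 7.57, 7.72 and 7.83 at P30, against 5.36, 5.73 and 5.62 at P2 (log2 change 2.14 ± 0.18 (SE), adjusted p = 1.42e-07). Orc1, the subunit of the origin recognition complex that marks origins, had 7.29, 7.39 and 7.42 at P30, against 5.14, 4.99 and 5.54 at P2 (log2 change 2.14 ± 0.21 (SE), adjusted p = 8.70e-07), and Lig1, the ligase that joins Okazaki fragments, had 9.18, 9.05 and 8.47 at P30, against 6.73, 6.44 and 6.68 at P2 (log2 change 2.28 ± 0.23 (SE), adjusted p = 1.03e-06). Replicate 3 was the highest P30 array for the first 3 and the lowest for Lig1, and no P30 array overlapped with P2 for any of them.

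In mitosis, Plk1, the kinase of mitotic entry and spindle assembly, had 8.97, 9.18 and 9.01 at P30, against 5.95, 6.25 and 6.43 at P2 (log2 change 2.84 ± 0.24 (SE), adjusted p = 1.29e-07). Tpx2, a spindle assembly factor that activates Aurora A, had 10.02, 9.92 and 9.74 at P30, against 6.83, 7.01 and 7.43 at P2 (log2 change 2.80 ± 0.27 (SE), adjusted p = 7.11e-07). Cdc20, the activator of the anaphase-promoting complex, had 9.48, 9.51 and 9.70 at P30, against 6.93, 7.32 and 7.19 at P2 (log2 change 2.42 ± 0.25 (SE), adjusted p = 1.48e-06). Kif20a, a kinesin of cytokinesis, had 9.91, 10.08 and 10.30 at P30, against 7.33, 7.77 and 7.92 at P2 (log2 change 2.42 ± 0.30 (SE), adjusted p = 6.84e-06), and Aspm, a spindle pole protein, had 8.33, 8.32 and 8.46 at P30, against 5.75, 5.32 and 5.78 at P2 (log2 change 2.75 ± 0.22 (SE), adjusted p = 7.69e-08). The 3 P30 arrays lay close together for each of these genes, and above every P2 array.

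Since both lists moved as blocks, the promoters were read for known motifs of cell cycle genes in RefSeq sequence of the GRCr8 assembly, from 250 bases before to 50 bases after each start. E2F factors bind sites of the kind TTTCCCGC, TTTCGCGC, TTTGCCGC and TTTGGCGC, known from genes of the S phase. The cell cycle genes homology region (CHR), TTTGAA or TTCGAA, is known from genes of the G2 and M phases. Both strands were searched. An E2F-type site was present in 16 of the 32 replication genes with a promoter in the table and in 1 of 21 mitosis genes (4.76%), against 2.14% of all 33469 promoters. A CHR was present in 5 of the replication genes (15.6%) and in 18 of the mitosis genes (85.7%), against 19.7% of all promoters. Of the replication genes with an E2F-type site, Orc5 (log2 change -0.03), Pola1 (0.11) and Rpa2 (0.57) were not called, and the others rose. Of those without one, Rfc1 (0.12) was not called, and the others rose. Of the mitosis genes with a CHR, Ect2 (0.19) and Smc4 (0.54) were not called, and the others rose. Those without a CHR all rose. Of all named genes with a promoter in the table, an E2F-type site was present in 6.27% of those that rose, 2.29% of those that fell and 4.24% of those not called, and a CHR in 16.1%, 13.1% and 12.0%. CCAAT, the letters read by NF-Y, was present in 56.2% of the replication genes and 76.2% of the mitosis genes, against 37.5% of all promoters. A match is a run of letters and was not tested as a binding site.

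The promoters of a pair of genes of each list are shown, 5′ to 3′ on the gene's strand, with the E2F-type letters (Mcm6, Mcm3) or the CHR (Plk1, Cdc20) in capitals. That of Mcm6 lies on the minus strand at chr13:42404303-42404602 and holds 2 overlapping E2F-type matches on opposite strands. That of Mcm3 lies on the minus strand at chr9:30733697-30733996 and holds 2 separate ones. That of Plk1 lies on the plus strand at chr1:186147408-186147707, and that of Cdc20 on the minus strand at chr5:137255750-137256049, each with 1 CHR.
Mcm6: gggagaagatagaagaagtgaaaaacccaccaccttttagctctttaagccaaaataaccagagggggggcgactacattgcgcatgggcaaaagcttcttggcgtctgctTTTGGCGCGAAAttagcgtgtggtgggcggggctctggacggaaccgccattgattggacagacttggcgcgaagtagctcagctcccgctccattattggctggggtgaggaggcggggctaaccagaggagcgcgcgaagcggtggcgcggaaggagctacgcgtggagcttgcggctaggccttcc
Mcm3: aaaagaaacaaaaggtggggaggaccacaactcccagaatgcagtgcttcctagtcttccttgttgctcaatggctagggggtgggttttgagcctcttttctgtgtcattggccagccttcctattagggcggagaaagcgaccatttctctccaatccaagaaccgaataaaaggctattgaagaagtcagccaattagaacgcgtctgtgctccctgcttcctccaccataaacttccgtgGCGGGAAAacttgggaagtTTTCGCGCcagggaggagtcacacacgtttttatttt
Plk1: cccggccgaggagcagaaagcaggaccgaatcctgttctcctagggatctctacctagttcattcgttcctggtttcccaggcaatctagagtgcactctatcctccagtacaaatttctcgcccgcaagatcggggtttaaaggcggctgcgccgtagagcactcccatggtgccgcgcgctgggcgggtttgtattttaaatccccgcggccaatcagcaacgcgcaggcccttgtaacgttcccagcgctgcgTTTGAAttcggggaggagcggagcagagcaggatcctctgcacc
Cdc20: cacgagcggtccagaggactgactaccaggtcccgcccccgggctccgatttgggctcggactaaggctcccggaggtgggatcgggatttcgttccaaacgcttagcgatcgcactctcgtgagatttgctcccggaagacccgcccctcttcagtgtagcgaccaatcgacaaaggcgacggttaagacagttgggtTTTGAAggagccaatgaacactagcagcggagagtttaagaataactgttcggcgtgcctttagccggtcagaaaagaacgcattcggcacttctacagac

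Of 17 detected regulators of the G1 phase 4 rose and 4 fell, shares near those of all genes (20.4% and 21.2%). E2f1 itself had 7.04, 7.11 and 7.03 at P30, against 5.36, 5.43 and 5.61 at P2 (log2 change 1.59 ± 0.13 (SE), adjusted p = 9.16e-08), and Myc, a transcription factor of cell growth, had 9.34, 9.41 and 9.96 at P30, against 8.51, 8.38 and 8.61 at P2 (log2 change 1.07 ± 0.19 (SE), adjusted p = 2.10e-04). Rb1, the retinoblastoma protein that holds E2F in check, was detected on no P30 array (4.55, 4.52 and 5.33 at P30, against 6.60, 6.64 and 6.34 at P2, at least 2.16-fold lower, adjusted p = 5.51e-06), and Tfdp2, a dimer partner of E2F, had 4.61, 4.62 and 4.54 at P30, against 5.87, 5.70 and 6.32 at P2 (at least 1.45-fold lower, adjusted p = 3.33e-05). Of 17 detected p53 targets 8 fell and 2 rose, against 21.2% and 20.4% of all genes, and 5 fell and none rose with replicate 3 alone. Their median log2 change was -0.46, and -0.02 with undetected genes at their bound. Cdkn1a, the inhibitor p21, had 5.55, 5.30 and 6.13 at P30, against 6.72, 6.53 and 6.35 at P2 (log2 change -0.88 ± 0.23 (SE), adjusted p = 0.00494), and with replicate 3 alone its log2 change was -0.41 (adjusted p = 0.326). Ccng2, a cyclin of resting cells, had 4.45, 4.43 and 5.21 at P30, against 6.57, 6.49 and 6.20 at P2 (at least 2.00-fold lower, adjusted p = 1.40e-05). Apaf1, the core of the apoptosome, rose, with 7.13, 7.17 and 6.83 at P30, against 6.27, 6.46 and 6.20 at P2 (log2 change 0.73 ± 0.18 (SE), adjusted p = 0.003), which was not called with replicate 3 alone (0.52). Among genes up-regulated on its arrays in long-term culture, the study reported a cluster of p53 signalling. That cluster was drawn from up-regulated genes alone, and its members need not be those of the list read here. By Western blot the study reported significantly more p21 and p16 protein at P30 and P100 than at P2, in both donor ages. The fall of Cdkn1a given here is one of RNA and runs opposite to that of p21 protein, and the reason was not tested. The gene of p16 was not analysed here.

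Of 19 detected DNA repair genes 8 rose and 2 fell, against 20.4% and 21.2% of all genes. Exo1, the exonuclease of mismatch repair, had 7.71, 7.83 and 8.24 at P30, against 5.52, 4.94 and 5.38 at P2 (log2 change 2.65 ± 0.25 (SE), adjusted p = 4.67e-07), and Fanca, of the Fanconi anaemia core complex, was detected on all P30 arrays and no P2 array (6.68, 6.88 and 6.51 at P30, against 4.59, 4.81 and 4.73 at P2, at least 3.18-fold higher, adjusted p = 2.32e-05). Mgmt, a methyltransferase that mends alkylated guanine, had 8.34, 8.45 and 7.68 at P30, against 9.46, 8.92 and 9.00 at P2 (log2 change -0.97 ± 0.31 (SE), adjusted p = 0.0165), a fall that was not called without replicate 3 of P30 (-0.73) or replicate 1 of P2 (-0.80). Of 28 chromatin genes 16 rose and none fell (median 0.63), and 11 rose and 1 fell with replicate 3 alone. Dnmt1, the maintenance DNA methyltransferase, had 9.75, 9.71 and 9.89 at P30, against 7.45, 7.40 and 7.51 at P2 (log2 change 2.33 ± 0.25 (SE), adjusted p = 1.70e-06). Hmgb2, a DNA-bending protein of dividing cells, had 10.03, 10.13 and 10.39 at P30, against 8.19, 8.08 and 8.15 at P2 (log2 change 2.04 ± 0.25 (SE), adjusted p = 8.30e-06), and Lmnb2, a lamin of the nuclear envelope, had 8.66, 8.57 and 8.35 at P30, against 5.56, 6.05 and 6.08 at P2 (log2 change 2.63 ± 0.31 (SE), adjusted p = 5.58e-06).

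Small leucine-rich proteoglycans bind collagen fibrils and growth factors. Of 8 detected members 6 fell and 1 rose, against 21.2% and 20.4% of all genes. Their median was -2.35 (-1.86 with undetected genes at their bound). Lum, lumican, was bright at P2 and detected on no P30 array (4.59, 4.52 and 4.42 at P30, against 9.35, 9.59 and 10.38 at P2, at least 20.5-fold lower, adjusted p = 2.28e-11). Aspn, asporin, had 7.36, 7.31 and 6.89 at P30, against 11.49, 11.04 and 10.13 at P2 (log2 change -3.70 ± 0.27 (SE), adjusted p = 3.13e-08), and Prelp had 5.21, 5.31 and 4.89 at P30, against 7.89, 8.34 and 8.88 at P2 (at least 7.72-fold lower, adjusted p = 9.50e-08). Fmod, fibromodulin, was the member that rose, with 8.37, 8.49 and 6.67 at P30, against 5.72, 6.32 and 6.49 at P2 (log2 change 1.66 ± 0.40 (SE), adjusted p = 0.00255). That rise rested on replicates 1 and 2, since replicate 3 lay close to the P2 arrays, and it was not called with replicate 3 alone (0.49, adjusted p = 0.403).

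Matrix glycoproteins and elastic fibre genes fell more often than they rose, 12 against 3 of 26 detected. Besides Mgp, Thbs2 and Eln, which fell, laminin chains of basement membrane rose. Lama5 had 8.75, 8.77 and 7.96 at P30, against 6.03, 5.87 and 6.05 at P2 (log2 change 2.51 ± 0.30 (SE), adjusted p = 6.06e-06) and Lamc1 had 8.88, 8.88 and 9.11 at P30, against 7.71, 7.58 and 7.31 at P2 (log2 change 1.42 ± 0.19 (SE), adjusted p = 1.66e-05). Of 13 detected collagens 5 rose and 2 fell, against 20.4% and 21.2% of all genes, and with replicate 3 alone 2 rose and 2 fell. Col18a1, a basement membrane collagen that gives endostatin, had 9.25, 9.39 and 9.50 at P30, against 8.07, 7.54 and 8.02 at P2 (log2 change 1.51 ± 0.28 (SE), adjusted p = 3.55e-04). Col5a3 rose, with 6.81, 6.49 and 5.79 at P30, against 4.68, 4.92 and 5.91 at P2 (log2 change 1.19 ± 0.31 (SE), adjusted p = 0.00483), although replicate 3 of P30 lay below replicate 3 of P2, and the rise was not called with replicate 3 alone (0.62). The falls were those of Col15a1 (8.58, 8.54 and 7.64 at P30, against 9.09, 10.14 and 10.50 at P2, log2 change -1.66 ± 0.34 (SE), adjusted p = 7.20e-04) and Col8a1 (11.44, 11.38 and 11.94 at P30, against 13.04, 13.09 and 12.81 at P2, log2 change -1.39 ± 0.20 (SE), adjusted p = 3.31e-05). Col1a1, the main collagen of bone, had 13.32, 13.24 and 12.35 at P30, against 12.14, 12.19 and 12.24 at P2 (log2 change 0.78 ± 0.22 (SE), adjusted p = 0.00839). Its rise was read on replicates 1 and 2 and not on replicate 3, was 0.16 with replicate 3 alone, and was not called without P30 replicate 1 (0.60), with no normalization between arrays, with centred arrays or with the deposited normalized values.

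Of 16 matrix metalloproteinases and their inhibitors 10 fell and 1 rose, against 21.2% and 20.4% of all genes. Mmp23 had 4.33, 4.35 and 4.37 at P30, against 7.07, 7.60 and 7.56 at P2 (at least 3.98-fold lower, adjusted p = 2.22e-09). Mmp3, stromelysin 1, had 4.33, 4.34 and 4.32 at P30, against 6.24, 7.09 and 9.95 at P2 (at least 5.06-fold lower, adjusted p = 5.67e-04), and Mmp12, the macrophage elastase, had 4.32, 4.35 and 4.32 at P30, against 7.06, 6.31 and 8.86 at P2 (at least 3.97-fold lower, adjusted p = 2.94e-05). The P2 arrays differed more among themselves for Mmp3 and Mmp12, with replicate 3 the highest, as for the macrophage markers (summed signal without Cyba at P2 1652 to 3712), whose part in these falls was not tested. The member that rose was Mmp11 (7.01, 7.14 and 6.29 at P30, against 6.04, 6.22 and 6.03 at P2, log2 change 0.72 ± 0.19 (SE), adjusted p = 0.00562), which was not called without P30 replicate 2 (0.56) or with replicate 3 alone (0.20).

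Of 17 detected chemokines, interleukins and receptors 11 fell and 1 rose (median -1.45, against 0.05 over all genes, of which 21.2% fell). Ccl2, which attracts monocytes, had 4.76, 4.82 and 4.94 in aMSCs P30, against 9.83, 9.03 and 12.91 in aMSCs P2 (at least 36-fold lower, adjusted p = 4.36e-06). Ccl7, a second monocyte chemokine, had 4.57, 4.37 and 4.41 in aMSCs P30, against 8.17, 7.94 and 12.54 in aMSCs P2 (at least 17.5-fold lower, adjusted p = 1.25e-04). Both were undetected on every P30 array and varied at P2, where replicate 3 exceeded the others by over 3 on the log2 scale. Cxcl12, the chemokine that keeps blood stem cells in the marrow, was still bright at P30, with 9.29, 9.19 and 9.27 in aMSCs P30, against 10.25, 10.96 and 11.33 in aMSCs P2 (log2 change -1.60 ± 0.28 (SE), adjusted p = 1.98e-04). Its receptors were near the floor or lost. Cxcr4 was detected on 2 P2 arrays and no P30 array (4.41, 4.37 and 4.35 at P30, against 5.03, 5.34 and 5.32 at P2), and its fall (adjusted p = 0.0136) was not called with the deposited normalized values or with replicate 3 as the only P30 array (-0.88, adjusted p = 0.114). Ackr3, the scavenging receptor of Cxcl12, was detected on all P2 arrays and no P30 array (5.22, 5.26 and 4.43 at P30, against 7.20, 7.48 and 7.60 at P2, at least 4.02-fold lower, adjusted p = 5.90e-06). Ccl27 was the member that rose, detected on 2 P30 arrays and no P2 array (5.50, 5.75 and 5.34 at P30, against 4.77, 4.48 and 4.54 at P2, at least 1.42-fold higher, adjusted p = 2.46e-05).

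Of 9 detected complement genes 6 fell and none rose, against 21.2% and 20.4% of all genes. C2 had 5.28, 5.27 and 4.97 at P30, against 10.19, 10.14 and 9.13 at P2 (at least 21.1-fold lower, adjusted p = 6.00e-10). The protease C1s had 4.73, 4.63 and 4.63 at P30, against 6.53, 6.56 and 7.19 at P2 (at least 2.53-fold lower, adjusted p = 5.51e-06), and its inhibitor Serping1 had 4.58, 4.51 and 4.39 at P30, against 7.03, 6.27 and 7.09 at P2 (at least 2.60-fold lower, adjusted p = 5.25e-08). Cd55, which protects cells from complement, had 4.76, 4.55 and 5.26 at P30, against 6.11, 7.10 and 6.73 at P2 (at least 2.35-fold lower, adjusted p = 4.57e-05). All 4 were undetected on every P30 array. Macrophages express some chemokine and complement genes too, and the markers of that list fell alongside (10 of 11), but the part of such cells in these falls was not tested.

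BMP ligands drive bone formation, and their secreted antagonists hold them in check. Of 20 detected genes of BMP signalling 10 fell and none rose (median -0.59), against 21.2% and 20.4% of all genes. The median was -0.84 when replicate 3 was the only P30 array. Bmp4 had 4.49, 4.77 and 4.70 at P30, against 8.07, 7.66 and 6.60 at P2 (at least 4.07-fold lower, adjusted p = 7.30e-07), and Bmp6 had 4.84, 4.66 and 4.56 at P30, against 6.02, 6.06 and 6.05 at P2 (at least 1.54-fold lower, adjusted p = 1.20e-07). Bmp2, the ligand used to induce bone in culture, had 5.97, 5.74 and 5.17 at P30, against 5.51, 5.78 and 5.62 at P2 and was not called (log2 change -0.01 ± 0.18 (SE), adjusted p = 0.956). Of the receptors, Bmpr1a fell, with 7.14, 6.67 and 6.66 at P30, against 7.92, 7.92 and 7.76 at P2 (log2 change -1.04 ± 0.16 (SE), adjusted p = 7.78e-05), Bmpr2 was not called (7.93, 7.91 and 8.12 at P30, against 8.49, 8.32 and 8.15 at P2, log2 change -0.33 ± 0.23 (SE), adjusted p = 0.251), and Bmpr1b was detected on 1 P2 array alone (5.06, 5.40 and 4.80 at P30, against 4.89, 5.00 and 4.94 at P2). Among secreted antagonists Grem1, Nbl1 and Nog fell. Grem1, gremlin, had 8.79, 8.49 and 10.08 at P30, against 12.52, 12.60 and 13.56 at P2 (log2 change -3.78 ± 0.35 (SE), adjusted p = 4.47e-07), Nbl1 had 8.81, 8.81 and 7.67 at P30, against 9.92, 10.18 and 10.32 at P2 (log2 change -1.71 ± 0.25 (SE), adjusted p = 4.71e-05), and Nog, noggin, had 4.50, 4.52 and 4.60 at P30, against 5.66, 6.56 and 5.97 at P2 (at least 1.56-fold lower, adjusted p = 0.003). Grem1 was still detected on every P30 array, with replicate 3 nearest to P2. The fall of Nog was not called with replicate 3 alone (-1.47, adjusted p = 0.0624).

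Of 16 detected Wnt genes 7 fell and 2 rose, against 21.2% and 20.4% of all genes. Their median log2 change was -0.35, and -0.21 with replicate 3 alone. Fzd1, a Wnt receptor, had 7.80, 7.76 and 7.29 at P30, against 10.14, 10.40 and 10.49 at P2 (log2 change -2.73 ± 0.16 (SE), adjusted p = 2.22e-09), and Sfrp4, a secreted Wnt antagonist, had 4.48, 4.54 and 4.45 at P30, against 6.49, 6.24 and 6.89 at P2 (at least 2.17-fold lower, adjusted p = 4.47e-07). The rises were small. Axin1, of the complex that degrades beta-catenin, had 6.07, 5.89 and 6.19 at P30, against 5.03, 5.13 and 5.25 at P2 (log2 change 0.91 ± 0.16 (SE), adjusted p = 2.72e-04), and Wnt6 was detected on all P30 arrays and no P2 array (5.57, 5.77 and 5.74 at P30, against 4.96, 4.87 and 5.02 at P2, at least 1.60-fold higher, adjusted p = 0.00216).

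Of 20 detected growth factors and receptor kinases 12 fell and none rose (median -0.86), against 21.2% and 20.4% of all genes. Fgf7, a growth factor for epithelia, had 5.74, 5.63 and 6.45 at P30, against 7.62, 8.02 and 7.54 at P2 (log2 change -1.79 ± 0.21 (SE), adjusted p = 5.67e-06), and Angpt4 had 4.49, 4.58 and 4.48 at P30, against 6.72, 5.98 and 7.41 at P2 (at least 2.44-fold lower, adjusted p = 2.00e-05). The kinases were split by replicate. Axl, the receptor of Gas6, had 5.88, 6.52 and 8.63 at P30, against 8.52, 8.52 and 8.83 at P2 (log2 change -1.61 ± 0.51 (SE), adjusted p = 0.0143), and Ddr1, a collagen receptor, had 4.41, 4.33 and 5.94 at P30, against 6.34, 6.58 and 7.17 at P2 (log2 change -1.81 ± 0.32 (SE), adjusted p = 2.18e-04). With replicate 3 alone the change was 0.01 for Axl and -0.76 for Ddr1, neither of them called, and 7 genes of the list fell. Axl was not called without replicate 1 (-1.04) or replicate 2 (-1.37) alone.

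In the IGF system, 4 of 9 detected genes fell and 1 rose, against 21.2% and 20.4% of all genes. Igf2, the imprinted growth factor, had 4.48, 4.42 and 4.44 at P30, against 6.89, 7.36 and 7.64 at P2 (at least 3.68-fold lower, adjusted p = 1.11e-09). Igf2r, the receptor that clears it and sorts lysosomal enzymes, rose, with 12.00, 12.14 and 11.93 at P30, against 10.85, 10.65 and 10.53 at P2 (log2 change 1.35 ± 0.20 (SE), adjusted p = 4.34e-05). The binding proteins Igfbp3 (4.37, 4.53 and 4.48 at P30, against 8.03, 8.16 and 7.39 at P2, at least 5.43-fold lower, adjusted p = 2.22e-09) and Igfbp2 (5.82, 5.29 and 5.02 at P30, against 8.65, 8.34 and 7.99 at P2, log2 change -2.95 ± 0.32 (SE), adjusted p = 2.25e-06) fell. Of 8 detected imprinted genes 4 fell and 2 rose. Snrpn, of the Prader-Willi region, rose alike on all P30 arrays (13.06, 13.16 and 13.07 at P30, against 11.56, 11.64 and 11.60 at P2, log2 change 1.5 ± 0.19 (SE), adjusted p = 1.17e-05). Ndn, necdin, of the same region, fell, with 8.52, 8.30 and 7.16 at P30, against 10.82, 10.37 and 10.73 at P2 (log2 change -2.65 ± 0.29 (SE), adjusted p = 2.37e-06).

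Of 40 detected genes of adhesion and the actin cytoskeleton 9 fell and 5 rose, against 21.2% and 20.4% of all genes, and with replicate 3 alone 6 fell and 2 rose. The sign of their median (0.02) turned with the scaling, from -0.28 to 0.07. Ezr, ezrin, the relative of moesin, rose, with 8.17, 8.44 and 8.18 at P30, against 6.65, 7.26 and 7.07 at P2 (log2 change 1.27 ± 0.17 (SE), adjusted p = 1.42e-05), while Msn fell. Cap1, a regulator of actin turnover, had 8.13, 10.56 and 11.27 at P30, against 11.93, 11.97 and 12.09 at P2 (log2 change -2.01 ± 0.51 (SE), adjusted p = 0.00359), and Limk1, the kinase of cofilin, had 7.64, 7.67 and 6.05 at P30, against 5.85, 5.99 and 6.21 at P2 (log2 change 1.11 ± 0.32 (SE), adjusted p = 0.00871). P30 replicate 1 was far below the others for Cap1, and replicate 3 was at the P2 level for Limk1. With replicate 3 alone neither was called (-0.73 and 0.03). Limk1 was also not called without replicate 1 (0.84) or replicate 2 (0.83). Of 9 detected integrins 3 rose and 3 fell, and 3 and 1 with replicate 3 alone. Itga5, the fibronectin receptor chain, had 11.16, 10.98 and 10.78 at P30, against 8.30, 8.56 and 8.95 at P2 (log2 change 2.37 ± 0.34 (SE), adjusted p = 3.62e-05), and Itga7, a laminin receptor chain, had 8.45, 8.33 and 7.93 at P30, against 7.19, 6.93 and 6.68 at P2 (log2 change 1.31 ± 0.24 (SE), adjusted p = 2.95e-04). Itga1, a collagen receptor chain, had 7.96, 8.09 and 8.30 at P30, against 11.07, 8.89 and 9.17 at P2 (log2 change -1.59 ± 0.44 (SE), adjusted p = 0.00624), where P2 replicate 1 stood above the other P2 arrays, and it was not called with replicate 3 alone (-1.41, adjusted p = 0.12).

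Differentiation genes were read for bone, fat and cartilage, beside the 21.2% of all genes that fell and the 20.4% that rose. Of 17 detected osteoblast genes 7 fell and 2 rose, and 7 fell and 1 rose with replicate 3 alone. Their median was -0.16 and ranged from -0.50 to 0.04 over the alternative settings. Enpp1, which makes pyrophosphate and controls mineral, had 9.15, 8.97 and 9.41 at P30, against 11.96, 11.71 and 11.77 at P2 (log2 change -2.64 ± 0.17 (SE), adjusted p = 7.37e-09). Pth1r, the receptor of parathyroid hormone, had 6.44, 6.20 and 5.29 at P30, against 8.03, 8.08 and 8.01 at P2 (log2 change -2.06 ± 0.21 (SE), adjusted p = 1.29e-06). Msx2, a homeobox factor of early osteoblasts, rose, with 7.16, 7.06 and 7.34 at P30, against 5.73, 6.00 and 6.00 at P2 (log2 change 1.28 ± 0.20 (SE), adjusted p = 6.53e-05), as did Col1a1 above. Of 11 detected adipocyte genes 4 fell and 1 rose. Pparg, the master factor of fat cells, had 5.39, 4.96 and 4.64 at P30, against 6.61, 6.66 and 6.57 at P2 (log2 change -1.62 ± 0.29 (SE), adjusted p = 2.34e-04) and was detected on 1 P30 array, and Cebpa was detected on none (4.37, 4.67 and 4.77 at P30, against 6.73, 7.26 and 6.65 at P2, at least 2.75-fold lower, adjusted p = 2.21e-05). Scd, stearoyl-CoA desaturase, rose, with 11.07, 10.99 and 9.97 at P30, against 9.64, 9.03 and 8.58 at P2 (log2 change 1.59 ± 0.52 (SE), adjusted p = 0.0175), which was not called without P30 replicate 1 (1.40), P30 replicate 2 (1.44) or P2 replicate 3 (1.34), or with P30 replicate 3 alone (0.89). Of 5 detected cartilage genes 3 rose, among them Acan, and 1 fell, and with replicate 3 alone 3 rose and none fell. The summed signal of the osteoblast list, 48218 to 57694 at P30 against 47516 to 54923 at P2, overlapped between the groups.

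Of 16 detected transcription factors of limb and axial position 7 rose and 3 fell, against 20.4% and 21.2% of all genes. The share of falls was thus near that of all genes. Tbx3, a T-box factor, was detected on all P30 arrays and no P2 array (6.09, 6.10 and 5.56 at P30, against 4.46, 4.39 and 4.61 at P2, at least 1.86-fold higher, adjusted p = 1.48e-06). Hoxd10, a Hox gene of the hind limb, had 6.71, 6.12 and 6.04 at P30, against 6.51, 8.21 and 7.60 at P2 (log2 change -1.15 ± 0.32 (SE), adjusted p = 0.00641), with P2 replicate 1 within the P30 range. Tbx18, a factor of perivascular cells, had 4.87, 4.37 and 6.19 at P30, against 6.84, 6.60 and 6.09 at P2 (log2 change -1.37 ± 0.34 (SE), adjusted p = 0.0035), where P30 replicate 3 was within the P2 range and the change with it alone was -0.32.

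Metabolism and organelles followed. Of 36 detected lysosomal genes 17 fell and 1 rose, against 21.2% and 20.4% of all genes. Their median was -0.52, from -0.75 to -0.41 over the alternatives. Ctsk, cathepsin K, a collagen-degrading protease, had 8.38, 8.22 and 8.68 at P30, against 11.31, 11.15 and 11.28 at P2 (log2 change -2.82 ± 0.18 (SE), adjusted p = 4.92e-09). Cln3, a lysosomal membrane protein, was the member that rose, with 7.90, 7.60 and 6.56 at P30, against 6.22, 6.53 and 6.60 at P2 (log2 change 0.91 ± 0.25 (SE), adjusted p = 0.00629), on replicates 1 and 2 only, and it was not called with replicate 3 alone (0.12). Of 38 detected genes of glutathione and antioxidant defence 13 fell and 4 rose (median -0.23), and 12 and 2 with replicate 3 alone. Sod3, the extracellular superoxide dismutase, had 9.70, 9.55 and 9.14 at P30, against 12.84, 12.42 and 12.08 at P2 (log2 change -2.98 ± 0.25 (SE), adjusted p = 1.30e-07), and Mgst1, a microsomal glutathione transferase, had 5.06, 5.15 and 4.69 at P30, against 7.32, 7.53 and 7.94 at P2 (at least 4.52-fold lower, adjusted p = 2.72e-06). Mgst2 rose, with 10.89, 10.88 and 10.74 at P30, against 9.61, 9.86 and 9.96 at P2 (log2 change 1.03 ± 0.25 (SE), adjusted p = 0.00292), and Txnrd2, the mitochondrial thioredoxin reductase, had 8.72, 8.76 and 8.00 at P30, against 6.86, 7.03 and 7.06 at P2 (log2 change 1.51 ± 0.20 (SE), adjusted p = 1.97e-05). The rise of Mgst2 was not called with the deposited normalized values or with replicate 3 alone (0.93, adjusted p = 0.0763).

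Of 58 detected genes of the mitochondrial ribosome 11 rose and 1 fell, a share of rises near the 20.4% of all genes, and with replicate 3 alone 5 rose and 1 fell. Mrps18b had 12.24, 12.32 and 12.23 at P30, against 11.05, 10.92 and 10.93 at P2 (log2 change 1.29 ± 0.19 (SE), adjusted p = 4.18e-05), and Mrpl17 fell, with 8.82, 8.95 and 8.56 at P30, against 9.57, 10.04 and 9.89 at P2 (log2 change -1.06 ± 0.22 (SE), adjusted p = 9.33e-04). Of 55 genes of the respiratory chain and ATP synthase 4 rose and 5 fell, and of 57 genes of the cytosolic ribosome 2 rose and 3 fell, both well under the 41.6% of all genes called. With replicate 3 alone these were 2 and 2, and 1 and 1.

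Of 27 detected genes of amino acid synthesis and the ATF4 response 12 rose and 2 fell (median 0.54, and 7 and 0 with replicate 3 alone). Phgdh, the first enzyme of serine synthesis, had 11.38, 11.60 and 11.40 at P30, against 9.73, 9.69 and 9.83 at P2 (log2 change 1.71 ± 0.16 (SE), adjusted p = 3.40e-07). Slc7a3, a transporter of arginine and lysine, had 7.46, 7.22 and 7.16 at P30, against 5.90, 5.88 and 5.80 at P2 (log2 change 1.42 ± 0.13 (SE), adjusted p = 4.82e-07). Atf5 fell, with 9.28, 9.29 and 9.70 at P30, against 10.41, 10.41 and 10.03 at P2 (log2 change -0.86 ± 0.16 (SE), adjusted p = 3.05e-04), as did the neutral amino acid transporter Slc1a4 (5.31, 5.25 and 6.74 at P30, against 7.27, 7.31 and 6.90 at P2, log2 change -1.40 ± 0.33 (SE), adjusted p = 0.00252). Neither fall was called with replicate 3 alone (-0.58 and -0.42). Of 15 detected genes of the hypoxia response 7 fell and none rose, against 21.2% and 20.4% of all genes, and 4 fell with replicate 3 alone. Vegfa, the vessel growth factor, had 6.59, 6.55 and 7.89 at P30, against 8.46, 8.48 and 8.15 at P2 (log2 change -1.35 ± 0.26 (SE), adjusted p = 4.75e-04), with replicate 3 near the P2 range and a change of -0.47 with it alone. Adm, adrenomedullin, had 5.49, 5.41 and 5.46 at P30, against 6.67, 7.22 and 7.23 at P2 (log2 change -1.59 ± 0.26 (SE), adjusted p = 1.16e-04). Bnip3, a mitophagy receptor, had 9.91, 9.87 and 9.39 at P30, against 10.88, 10.70 and 10.60 at P2 (log2 change -1.0 ± 0.17 (SE), adjusted p = 1.71e-04). Car9, carbonic anhydrase 9, had 5.55, 6.28 and 6.09 at P30, against 7.43, 7.03 and 7.69 at P2 (log2 change -1.41 ± 0.45 (SE), adjusted p = 0.0144), which was not called without P30 replicate 1 (-1.20), without P2 replicate 3 (-1.26) or with P30 replicate 3 alone (-1.30).

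**Figure D4:**
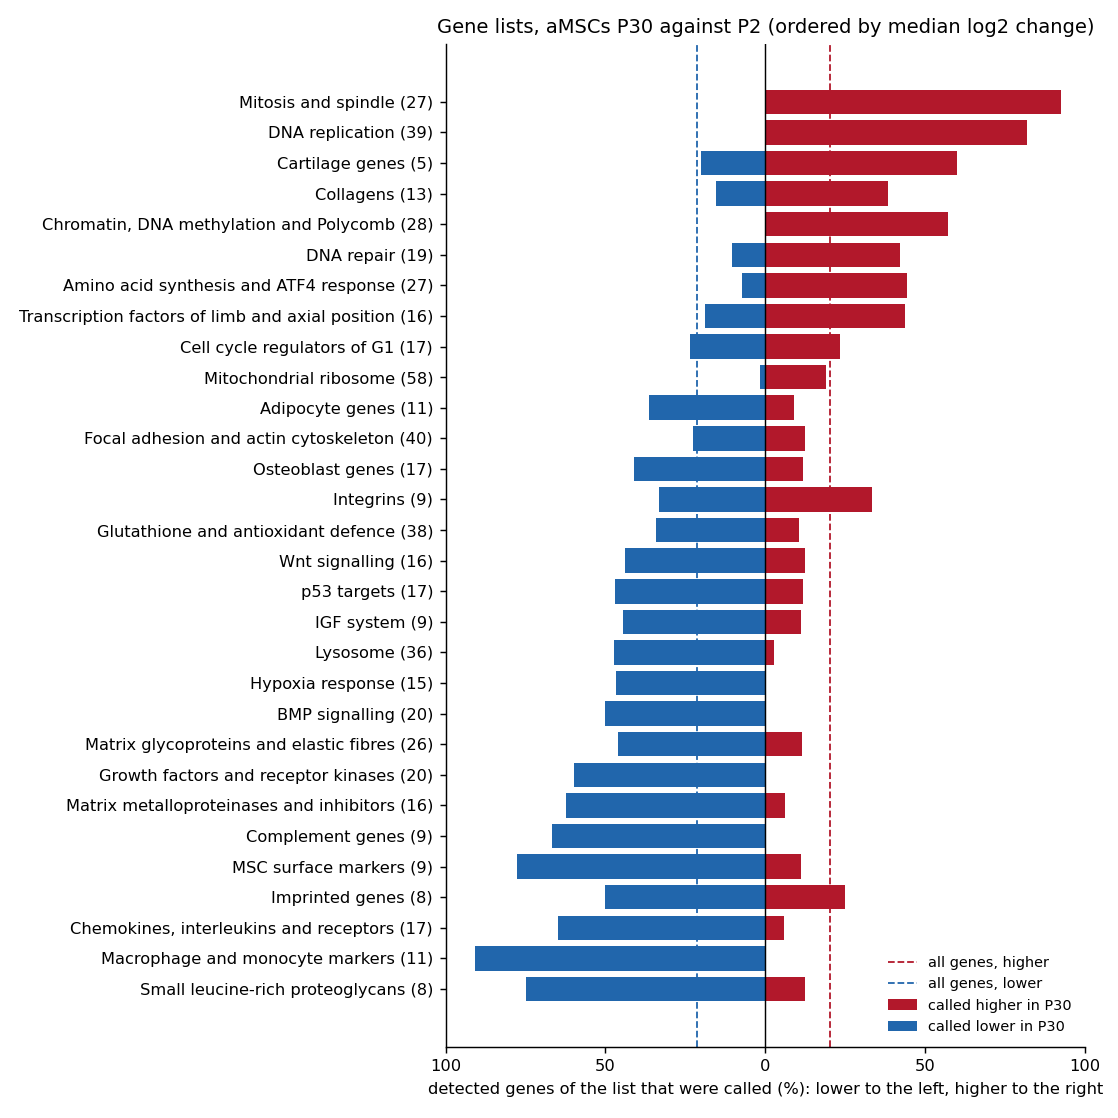
Share of the detected genes of each list that rose (right, red) or fell (left, blue) in aMSCs between P30 and P2, with the number detected in brackets and dashed lines at 20.4% and 21.2% for all genes. Lists are ordered by their median log2 change, from mitosis and spindle (1.85) to the small leucine-rich proteoglycans (-2.35). Medians of the lists near 0 change sign with the scaling, among them focal adhesion (0.02) and the adipocyte list (0.13).

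The interaction, the log2 change to P30 in aMSCs minus that in yMSCs, was read for the difference between donor ages. Whether the P30 arrays of each age came from separate cultures is not given in the sources used here. Donor age and culture can therefore not be told apart in it, and its p-values measured only the spread between arrays. No array is shared between both changes. The yMSCs P30 arrays were split too. Their replicate 1 correlated at 0.966 and 0.968 with replicates 2 and 3, which correlated at 0.995 with each other. It differed from their mean by over 1 on the log2 scale for 565 genes, 339 higher and 226 lower. No alternative fit left out a yMSCs P30 array, so the weight of that array in the interactions was not tested. The interaction was above 0 for 505 genes (5.69%) and below 0 for 526 (5.92%), 1031 in all (11.6%). Over the same 8878 genes 1469 rose and 1441 fell in yMSCs. Risen in both ages were 916 genes and fallen in both 915, and 71 were called in opposite directions. With P30 replicate 3 as the only aMSCs P30 array, the interaction was above 0 for 188 genes and below for 208, of which 176 and 185 were among those called with all arrays. The count moved to 677 without P30 replicate 1, 651 without P30 replicate 2, 1953 without P30 replicate 3 and 661 without P2 replicate 2.

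The genes with the largest interactions below 0 that were also called with replicate 3 alone were, apart from Pdia5, lost or lowered in aMSCs and kept or raised in yMSCs. Tmeff2, a membrane protein with follistatin domains, had 4.80, 4.43 and 4.41 at P30, against 8.44, 8.78 and 7.84 at P2 in aMSCs, and in yMSCs 7.30, 7.61 and 7.60 at P30, against 5.59, 4.80 and 5.31 at P2 (interaction -6.07 ± 0.31 (SE), adjusted p = 2.19e-09). Epb41l3, a protein of the membrane skeleton, had 4.40, 4.46 and 4.42 at P30, against 6.23, 6.84 and 7.22 at P2 in aMSCs, and in yMSCs 10.91, 10.13 and 10.27 at P30, against 7.30, 7.24 and 7.43 at P2 (interaction -5.45 ± 0.32 (SE), adjusted p = 1.19e-08). The aMSCs P30 arrays did not detect either gene, so that these interactions rest on a level at the floor, while every yMSCs P30 array detected both. Wfdc1, a secreted protease inhibitor domain protein, had 8.72, 8.88 and 8.41 at P30, against 12.94, 12.90 and 12.90 at P2 in aMSCs, and in yMSCs 11.74, 12.16 and 12.31 at P30, against 12.67, 11.76 and 11.39 at P2 (interaction -4.37 ± 0.36 (SE), adjusted p = 5.84e-07). Pdia5, a disulfide isomerase of the endoplasmic reticulum, rose in both ages but by 0.78 in aMSCs and 4.48 in yMSCs (interaction -3.70 ± 0.21 (SE), adjusted p = 7.51e-09). Pkp2, a desmosome protein, had a change of -1.14 in aMSCs and 3.24 in yMSCs (interaction -4.38 ± 0.48 (SE), adjusted p = 1.51e-05), and its fall in aMSCs was not called without P2 replicate 3 (-0.79) or with P30 replicate 3 alone (-0.61). Car9 changed by -1.41 in aMSCs and 3.78 in yMSCs (interaction -5.20 ± 0.63 (SE), adjusted p = 3.58e-05).

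Cpe and Msn also were among the largest interactions below 0 (-4.07, adjusted p = 0.0166, and -3.93, adjusted p = 0.0386). They belong to the genes dark on P30 replicates 1 and 2, and their interactions were -1.24 and -0.67 with replicate 3 alone, neither of them called. The same held for Golph3 (-3.08, and -0.63 with replicate 3 alone).

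On the other side stood genes that rose in aMSCs and not in yMSCs, or fell less in aMSCs. Penk had 13.21, 13.11 and 12.28 at P30, against 10.74, 9.49 and 9.94 at P2 in aMSCs, and in yMSCs 10.04, 10.36 and 10.42 at P30, against 11.36, 12.84 and 13.49 at P2 (interaction 5.10 ± 0.58 (SE), adjusted p = 1.91e-05). Slc7a3 had 7.46, 7.22 and 7.16 at P30, against 5.90, 5.88 and 5.80 at P2 in aMSCs, and in yMSCs 4.69, 4.63 and 4.66 at P30, against 7.63, 7.34 and 7.85 at P2 (interaction 4.36 ± 0.19 (SE), adjusted p = 3.48e-10). Cdhr1 had the rise in aMSCs given above, and in yMSCs 5.79, 5.34 and 5.08 at P30, against 4.56, 4.78 and 5.92 at P2 (interaction 4.13 ± 0.66 (SE), adjusted p = 5.27e-04). The 3 aMSCs P30 arrays stood above every yMSCs P30 array for each of the 3 genes. Slc16a3, the exporter of lactate, rose by 1.59 in aMSCs and fell by 2.00 in yMSCs (interaction 3.60 ± 0.27 (SE), adjusted p = 2.00e-07). Pltp, the phospholipid transfer protein, changed by 0.78 in aMSCs and -2.76 in yMSCs (interaction 3.54 ± 0.29 (SE), adjusted p = 5.08e-07), and its rise in aMSCs was not called with the deposited normalized values or with replicate 3 alone (0.23).

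Falls of unequal size made up the others. Gpx3, the secreted glutathione peroxidase, had 10.56, 10.67 and 9.73 at P30, against 12.54, 11.73 and 12.72 at P2 in aMSCs, and in yMSCs 5.47, 5.82 and 6.04 at P30, against 11.51, 11.97 and 11.38 at P2 (interaction 3.84 ± 0.38 (SE), adjusted p = 3.82e-06). Aqp1, a water channel, had 11.81, 11.68 and 11.46 at P30, against 13.46, 13.01 and 13.35 at P2 in aMSCs, and in yMSCs 7.29, 7.57 and 7.45 at P30, against 12.88, 12.75 and 12.25 at P2 (interaction 3.57 ± 0.25 (SE), adjusted p = 1.32e-07). Gng11, a G protein gamma subunit, changed by -0.70 in aMSCs and -4.64 in yMSCs (interaction 3.95 ± 0.36 (SE), adjusted p = 1.84e-06), and the change in aMSCs was not called in any fit without P30 replicate 1, 2 or 3 or without P2 replicate 1 or 2. In the antioxidant list the interaction was above 0 for 8 of 38 genes and below 0 for none, against 5.69% and 5.92% over all genes. Among the 8 proteoglycans the interaction was above 0 for 4, including Lum (2.76), Aspn (3.31) and Fmod (3.17), and below 0 for 2, including Prelp (-1.66). Lum, Aspn and Fmod were detected on no yMSCs P30 array, and Lum and Prelp on no aMSCs P30 array, so that these values rest on a level at the floor.

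**Figure D5:**
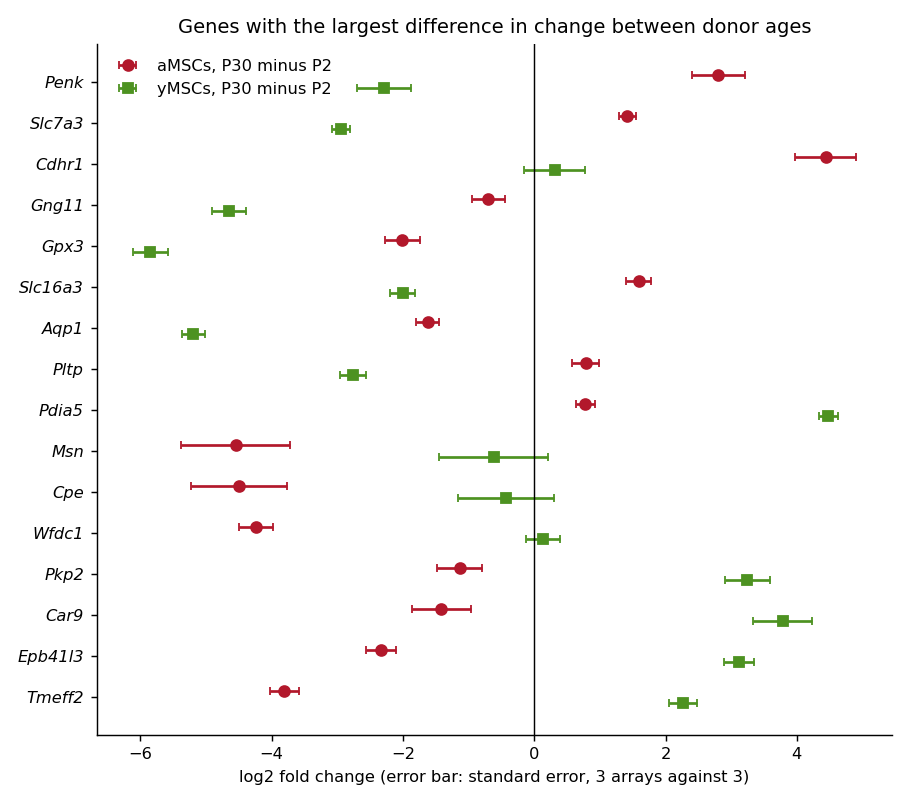
Log2 change between P30 and P2 in aMSCs (red circles) and in yMSCs (green squares) of the 16 genes with the largest interactions, 8 in each direction, with standard errors. The changes in aMSCs and yMSCs lie on opposite sides of 0 for Penk, Slc7a3, Slc16a3, Pltp, Pkp2, Car9, Epb41l3 and Tmeff2, and by a small margin for Wfdc1 (0.13 in yMSCs). Error bars of Msn and Cpe are wide, with P30 replicate 3 apart from replicates 1 and 2.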

How the data were processed

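Per the file headers, the authors deposited for each of the 22226 probes the mean bead intensity of each array, exported from BeadStudio 3 (named in the submitters' processing notes) without background subtraction, and a detection p-value, the rank of the probe's signal among the negative control beads. A second deposited table holds the authors' intensities after subtraction of background and rank invariant normalization. These are a straight line of each array's intensities, with array medians of 7.28 to 21.1, and were used as an alternative only. How arrays were assigned to chips and scans is not given in the sources used here.

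Intensities were corrected with limma's neqc (normexp by detection p-value, offset 16, quantile normalization, log2). R 4.3.3 and limma 3.58.1 were used. Of several probes of a gene the brightest by its mean log2 signal was kept, and the mean of the probes was an alternative. Names came from the platform annotation, with 1 symbol for 13192 probes and none for 9034, and 70 probes whose values did not match between both tables, 20 of them with a symbol, were left unnamed, so that 13172 had a name. A group's gene was detected at a mean detection p-value of at most 0.01. One model with 6 group means was fitted to all 18 arrays (12 residual and 4.51 prior degrees of freedom), with the change to P30 in aMSCs, that in yMSCs, and their difference. The model was tested on simulated arrays with independent noise for each gene and array. These held neither the split of the P30 replicates nor the difference in background, so the simulation cannot show how calls respond to them.

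Named genes were the 15 largest called rises and falls with arrays that did not overlap, up to 4 members of each described list, the 8 largest interactions and the 8 largest gaps of P30 replicate 3 in each direction, surface markers and genes the study's text names. The genes compared and the 51 lists were chosen with earlier results of these data known. Replicate numbers did not pair the arrays. In all, 20 alternatives were run, and no column of another sample was used. The number of arrays limits the precision.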

Additional observations from a re-analysis of the deposited data

Results flagged for a closer look

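For 71 of the genes named here the change to P30 differed between aMSCs and yMSCs by limma's interaction term, 37 above 0 and 34 below, and 43 of them were also called with replicate 3 as the only aMSCs P30 array. Values are the log2 change in aMSCs minus that in yMSCs. For 24 of the genes at least 1 of the groups compared was detected on no array, so that the value rests on a level at the floor. Among them, Apoe and Bmp6 were detected on no P30 array of either age, so that their interactions rest on the P2 levels. These were 8.25 in aMSCs and 10.79 in yMSCs for Apoe, and 6.04 and 5.33 for Bmp6.

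Interactions above 0 that were also called with replicate 3 alone were those of Penk (5.10), Slc7a3 (4.36), Cdhr1 (4.13), Gng11 (3.95), Gpx3 (3.84), Slc16a3 (3.60), Aqp1 (3.57), Pltp (3.54), Aspn (3.31), Fmod (3.17), Lum (2.76), Col15a1 (2.75), Ndn (2.56), Ezr (2.36), Igf2 (2.30), Snrpn (2.30), Mgst2 (2.25), Pf4 (2.25), Ms4a4c (2.17), Bnip3 (1.88), Ctsk (1.70), Krt8 (1.68), Mmp23 (1.42) and Tbx3 (1.32). Not called with replicate 3 alone were Aplp1 (2.40), Apoe (2.39), Sod3 (1.90), Cln3 (1.69), Itga5 (1.66), Col5a3 (1.63), Dmrt2 (1.52), Cxcr4 (1.28), Sfrp4 (1.13), Ccl27 (0.95), Txnrd2 (0.94), Bmp2 (0.81) and E2f1 (0.72).

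Interactions below 0 that were also called with replicate 3 alone were those of Tmeff2 (-6.07), Epb41l3 (-5.45), Car9 (-5.20), Pkp2 (-4.38), Wfdc1 (-4.37), Pdia5 (-3.70), Igfbp2 (-3.16), Ackr3 (-2.98), Sirpa (-2.68), Palmd (-2.65), Tbx18 (-2.53), Bmp4 (-2.31), Cd55 (-2.17), Smpdl3a (-1.77), Prelp (-1.66), Igfbp3 (-1.52), Pth1r (-1.50), Fzd1 (-0.92) and Bmp6 (-0.72). Not called with replicate 3 alone were Cpe (-4.07), Msn (-3.93), Golph3 (-3.08), Axl (-2.56), Mgp (-2.16), Ddr1 (-2.04), Thbs2 (-1.73), Lpl (-1.62), Itgb1 (-1.59), Rb1 (-1.37), Cd44 (-1.34), Enpp1 (-1.30), Alcam (-1.02), Col8a1 (-0.97) and Atf5 (-0.89). The fit with 1 array assumes that it varies like the other groups. It also has less power, so a lost call alone does not show that an interaction rested on replicates 1 and 2. Some values hardly moved with replicate 3 alone, such as those of Apoe (2.27) and Thbs2 (-1.66). Others shrank, such as those of Msn (-0.67) and Golph3 (-0.63).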

How the results depend on the processing

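Of the counts of 1807 rises, 1884 falls, 1031 interactions and 428 called genes over all lists, most alternatives moved none by over 1.5 times. Exceptions were 1147 rises with no normalization between arrays, 2893 interactions with array weights, whose estimate gave a convergence warning, and 753 rises, 1050 falls, 676 interactions and 274 list genes at a fold of at least 2. Without P30 replicates 1 and 2 there were 396 interactions. Leaving out 1 array at a time gave 1601 to 1976 rises, 1718 to 1999 falls and 651 to 1953 interactions, highest without P30 replicate 3. Detection on all 3 arrays of one group and none of the other left 73 and 656 genes. The replicate block gave 1806 rises, 1874 falls and 893 interactions, and same-numbered arrays deviated together by -0.01, -0.13 and -0.10 only. Of the log2 changes of named genes, 2997 settings kept direction and side of the threshold, 108 lost the call, 7 gained it and 7 reversed, all without P30 replicates 1 and 2: Axl (0.0113), Bud23 (0.40), Cav1 (0.34), Flot2 (-0.74), Ier5 (0.88), Kmt2e (-0.33) and Yif1b (0.15). Of the interactions, 154 settings lost the call and none reversed. The rises of Apaf1, Mmp11, Pdia5 and Wnt6 were not called with no normalization between arrays.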
